A study of Mus musculus with 27 samples.

Results

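The genes described here encode 9 cytosolic RNA and DNA sensors and their adapters: Ddx58 (RIG-I), Ifih1 (MDA5), Dhx58 (LGP2), Mavs, E330016A19Rik (the array's name for Cgas, encoding cGAS), Tmem173 (STING), Zbp1, Eif2ak2 (PKR) and Azi2 (NAP1). They were found by the gene names in the array files, which gave 15 probes for the 9 genes, out of 55681 probes and 24217 named genes. For each gene the probe with the highest mean was taken as its main probe. All 9 main probes were well above background on all 25 arrays used, and none was saturated on any array, so every gene passed the filter on dim probes in every comparison.

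The arrays measured RNA of mouse bone marrow-derived macrophages (BMDMs), grown for 7 days in L929-conditioned medium from bone marrow of female C57BL/6 mice aged 6 to 8 weeks. Naïve cells received no ligand, acute cells received 1 ligand for 4 h, and re-stimulated cells received a ligand for 24 h, were washed, rested for 1 h and given the same ligand for another 4 h. The ligands were LPS (100 ng/ml, sensed by TLR4), CpG DNA (TLR9; 100 µM in the sample labels, 1 µM in the methods), Pam3CSK4 (100 ng/ml, TLR2) and Poly(I:C) (10 µg/ml, a synthetic double-stranded RNA sensed by TLR3). Each of the 9 groups had 3 cultures. The methods describe them at one place as separate mice and at another as independently made pools of 3 mice. The spread between arrays may also hold technical variation. Normalized values were deposited for 25 of 27 arrays: LPS re-stimulated cells have replicates 1 and 2, acute Pam3CSK4 cells have replicates 1 and 3, and every other group has all 3. Each array holds the RNA of a whole culture, in which fewer cells of a type and less RNA per cell cannot be told apart.

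RIG-I and MDA5 are helicases that bind viral double-stranded RNA in the cytosol and signal through MAVS on the mitochondrial surface. LGP2 belongs to the same helicase family, lacks the signalling domain and regulates the other members. cGAS binds DNA and makes the messenger cGAMP, which activates STING, and both routes meet at the kinase TBK1 to turn on type I interferon genes. NAP1 is an adapter of that kinase, ZBP1 senses left-handed nucleic acid and can trigger RIPK3- and MLKL-dependent cell death, and PKR is activated by double-stranded RNA and phosphorylates eIF2α to stop translation. Many sensor genes are themselves interferon-inducible, through the interferon-stimulated response element (ISRE) in their promoters.

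Promoter sequence is shown because members that moved together can be compared for this element. RefSeq promoter windows (GRCm38.p6, 250 bases before to 50 after the transcription start, 300 bases) were at hand for 6 of the 9 genes: Ddx58, Ifih1, E330016A19Rik, Mavs, Eif2ak2 and Azi2. The ISRE core was searched on both strands as GAAA, any 2 bases and GAAA again, and was present in 3 of the 6 windows, against 3.44% of all 32851 promoter windows. The matches lay at bases 3 to 12 after the start in Ddx58, 33 to 42 in Ifih1 and 19 to 28 in Eif2ak2. Stretches of 30 bases around them, chr4:40239804-40239833 for Ddx58, chr2:62646206-62646235 for Ifih1 and chr17:78882535-78882564 for Eif2ak2, all genes on the minus strand, are printed 5′ to 3′ along the gene, with the match in capitals, and in Ddx58 the match is on the opposite strand.
Ddx58: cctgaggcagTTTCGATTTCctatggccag
Ifih1: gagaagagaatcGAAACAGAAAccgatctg
Eif2ak2: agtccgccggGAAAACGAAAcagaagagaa
The NF-κB motif was in 0 of the 6 windows and in 4.51% of all windows, searched on both strands. A match is a run of letters and not a shown binding site, and the 3 windows without an ISRE core show only that these letters are not in them.

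Some arrays stood apart. Naïve replicate 3 had 74.6% of its probes well above background, against 42 to 54.3% on the other 24 arrays. CpG acute replicate 3 lay above both other CpG acute cultures for Ddx58, Ifih1, Dhx58, Zbp1, E330016A19Rik, Eif2ak2 and Azi2. The acute LPS RNA was hybridised on 3 separate slides, read by the scanner on other days than the rest, so slide and stimulus cannot be told apart in any comparison with acute LPS, whereas all other arrays shared 3 slides, 1 for each replicate number.

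The labelled cell type was checked with marker genes. All 6 macrophage markers (Emr1, Cd68, Csf1r, Itgam, Fcgr1 and Mertk) were well above background on 25 of 25 arrays, whereas markers of other cell types were mixed. The NK cell marker Ncr1 was above background on 6 arrays and Klrb1c on 0, the fibroblast markers Col1a2, Col1a1 and Pdgfra on 23, 4 and 0, the mast cell markers Cpa3 and Mcpt4 on 10 and 0, and the erythroid marker Hba-a1 on 16. The part of these markers in the results was not tested. Cd3e and Cd4, used as T cell markers, and Cd79a of B cells were above it on all 25, while Cd3g, Cd8a and Ms4a1 were above it on 1 or 2 arrays. Of the 4 neutrophil markers (Ly6g, Elane, Mpo and Camp), 3 to 4 were above background on each of the 15 arrays of the first and second cultures and 2 to 3 on the 7 arrays of replicate 3 on shared slides. Summed over the list, their log2 values were 37.4 to 47.7 on the 15 arrays, 22.6 to 30.6 on the 7 arrays and 25.2 to 28.9 on the 3 acute LPS arrays. Elane differed little (11.08 to 12.73 over all 25 arrays). Ly6g, which defines mature neutrophils, was at 8.74 to 12.78 on the 15 arrays, at 1.82 to 6.42 on the 7 and at 2.96 to 3.78 on the acute LPS arrays.

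**Figure D1:**
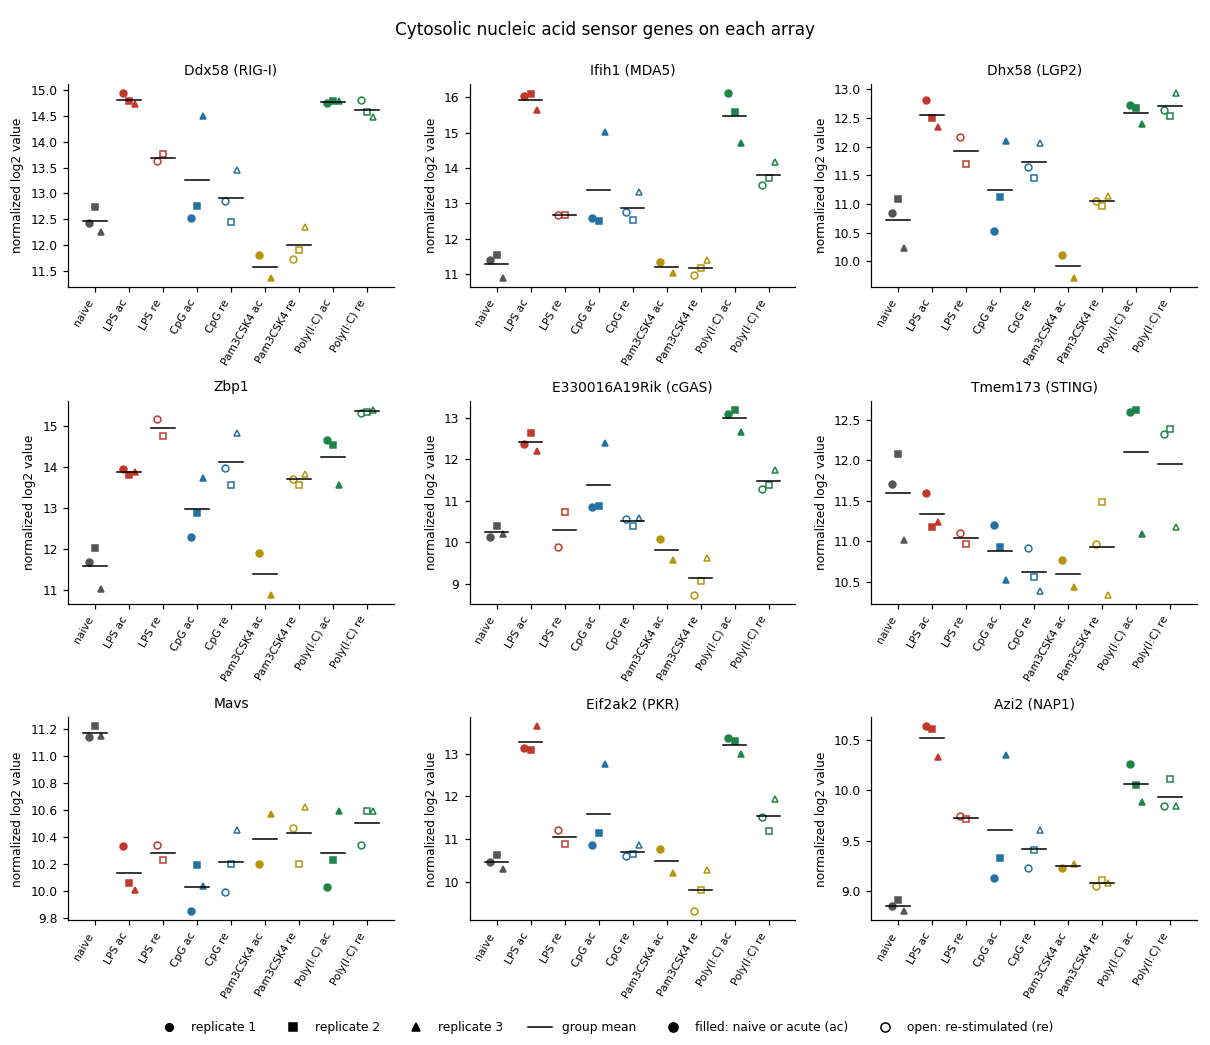
Normalized log2 value of the main probe (y axis) of each of the 9 genes on every array, by group (x axis; ac, acute; re, re-stimulated). Points are single arrays with the replicate number as symbol and bars are group means; Mavs is below its naïve values on all 22 stimulated arrays (with median scaling its mean is not for re-stimulated CpG and Poly(I:C)), Azi2 above them on all 22, and CpG acute replicate 3 is the highest of its group in 7 panels.

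Ifih1, the receptor of long double-stranded RNA, covered the widest range, with 4.73 between its highest and lowest group mean on the log2 scale. Its probe lies at chr2:62435507-62435566 (mm9, minus strand). Normalized log2 values were 11.39, 11.55 and 10.89 in naïve cells, 16.04, 16.10 and 15.64 with acute LPS, and 16.12, 15.60 and 14.70 with acute Poly(I:C). Acute CpG gave 12.60, 12.51 and 15.01, and acute Pam3CSK4 gave 11.35 and 11.04. Every acute LPS, CpG and Poly(I:C) array lay above all naïve arrays, whereas both acute Pam3CSK4 arrays fell within the naïve range. After re-stimulation the values were 12.67 and 12.67 for LPS, 12.75, 12.54 and 13.32 for CpG, 10.96, 11.18 and 11.41 for Pam3CSK4, and 13.53, 13.71 and 14.17 for Poly(I:C). Re-stimulated LPS and Poly(I:C) arrays thus sat between their naïve and acute arrays with no overlap on either side. Ifih1 rose 25-fold with acute LPS (4.65 ± 0.25, log2 change ± SE; limma adjusted p = 0.000349) and 18.3-fold with acute Poly(I:C) (4.19 ± 0.40, adjusted p = 0.00768). The acute CpG difference of 2.09 ± 0.70 missed the threshold (adjusted p = 0.146). It passed in 1 fit of all groups (adjusted p = 0.00476), with the slide as a random block (0.00271), with median scaling (2.81, adjusted p = 0.00104) and without the slide of replicate 3 (1.08 ± 0.17, adjusted p = 0.0209). From acute to re-stimulated LPS, Ifih1 fell 9.55-fold (-3.25 ± 0.22, adjusted p = 0.000524). For Poly(I:C) the same step gave -1.67 ± 0.39 (adjusted p = 0.0622), a call in 1 fit of all groups (0.0237), with the slide as a random block (0.0145), with normexp background, without acute Poly(I:C) replicate 3 (-2.06, adjusted p = 0.0252) and without the slide of replicate 3 (-2.24, adjusted p = 0.0113). The acute Poly(I:C) call was lost without acute Poly(I:C) replicate 2 (adjusted p = 0.0537).

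Ddx58, encoding RIG-I, which recognises RNA with a 5′-triphosphate, rose with acute LPS and acute Poly(I:C). Its probe lies at chr4:40151893-40151952 (minus strand). Naïve cells had 12.42, 12.74 and 12.26, acute LPS 14.94, 14.78 and 14.73, and re-stimulated LPS 13.62 and 13.76. Acute Poly(I:C) gave 14.75, 14.78 and 14.78 and re-stimulated Poly(I:C) 14.81, 14.58 and 14.48. On this main probe the 2 Poly(I:C) groups overlapped, while the re-stimulated LPS arrays lay below all acute LPS arrays and above all naïve arrays. On the other probe of Ddx58 the Poly(I:C) groups did not overlap, at 9.58 to 10.01 acutely and 9.11 to 9.31 after re-stimulation. CpG gave 12.53, 12.75 and 14.50 acutely and 12.85, 12.44 and 13.46 after re-stimulation, and Pam3CSK4 gave 11.80 and 11.36, then 11.73, 11.90 and 12.35. All CpG groups overlapped the naïve range and 4 of the 5 Pam3CSK4 arrays lay below it (the re-stimulated mean was 0.48 below naïve cells and 0.24 above them with median scaling). Ddx58 rose 5.08-fold with acute LPS (2.34 ± 0.20, adjusted p = 0.00118) and 4.91-fold with acute Poly(I:C) (2.30 ± 0.18, adjusted p = 0.00438). It fell 2.19-fold from acute to re-stimulated LPS (-1.13 ± 0.19, adjusted p = 0.00747), a call lost with median scaling (-0.89, adjusted p = 0.136) and with the slide as a random block (-1.06, adjusted p = 0.0585). The corresponding Poly(I:C) difference was -0.15 (adjusted p = 0.612; 0.12 with median scaling), and re-stimulated Poly(I:C) cells stayed 4.44-fold above naïve cells (2.15 ± 0.20, adjusted p = 0.00757).

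Dhx58, encoding LGP2, had its highest group mean after re-stimulation with Poly(I:C), 12.70 ± 0.20 (SD, n = 3), next to acute Poly(I:C) at 12.59 ± 0.18 (SD, n = 3) and acute LPS at 12.55 ± 0.24 (SD, n = 3); the arrays of these 3 groups overlapped one another in this order. Re-stimulated LPS followed at 11.93 ± 0.32 (SD, n = 2), re-stimulated CpG at 11.73 ± 0.31 (SD, n = 3) and acute CpG at 11.25 ± 0.79 (SD, n = 3). Naïve cells lay at 10.72 ± 0.43 (SD, n = 3). All re-stimulated CpG arrays (11.46 to 12.07) lay above all naïve ones (10.24 to 11.08), without a call. It was called in 1 fit of all groups (adjusted p = 0.0226) and with median (2.02, 0.0145) and 75th percentile scaling (1.21, 0.0344). With the replicate block it was not (adjusted p = 0.141). Acute Pam3CSK4 had the lowest mean, 9.91 ± 0.28 (SD, n = 2), with both arrays below all naïve arrays. Dhx58 (probe at chr11:100556271-100556330, minus strand) rose 3.55-fold with acute LPS (adjusted p = 0.00615), 3.65-fold with acute Poly(I:C) (adjusted p = 0.019) and stood 3.95-fold above naïve cells after Poly(I:C) re-stimulation (adjusted p = 0.0153). Both Poly(I:C) calls were lost when naïve replicate 1 was left out, or either of the first 2 cultures of the Poly(I:C) group concerned, with adjusted p up to 0.101 for the acute and 0.0677 for the re-stimulated cells. With replicate as a block the re-stimulated call was lost too (adjusted p = 0.0521). No step from acute to re-stimulated was called for Dhx58: LPS gave -0.62 ± 0.25 (adjusted p = 0.102), while the Poly(I:C) step was 0.11 (adjusted p = 0.745). The Pam3CSK4 step was 1.14 ± 0.23 (adjusted p = 0.196), with all re-stimulated arrays (10.96 to 11.13) above both acute ones (9.71 to 10.11), and was called with the slide as a random block (1.16, adjusted p = 0.0353).

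Mavs, the adapter that RIG-I and MDA5 share, was the only one of the 9 genes with its highest group mean in naïve cells. Its probe lies at chr2:131073675-131073734 (plus strand). The naïve arrays read 11.14, 11.22 and 11.15, and the highest of the 22 stimulated arrays read 10.62. Acute LPS gave 10.33, 10.06 and 10.01, acute CpG 9.85, 10.19 and 10.04, acute Pam3CSK4 10.20 and 10.57, and acute Poly(I:C) 10.03, 10.23 and 10.59. Re-stimulated cells had 10.34 and 10.23 with LPS, 9.99, 10.20 and 10.45 with CpG, 10.47, 10.20 and 10.62 with Pam3CSK4, and 10.34, 10.59 and 10.59 with Poly(I:C). No stimulated array reached the naïve range, and the 8 stimulated groups followed each other in overlapping order. Mavs was called lower with acute LPS (2.05-fold, -1.03 ± 0.18, adjusted p = 0.00962), with acute CpG (2.21-fold, -1.14 ± 0.17, adjusted p = 0.0259) and after CpG re-stimulation (1.94-fold, -0.95 ± 0.18, adjusted p = 0.0257; 0.07 with median scaling). The CpG re-stimulated value changed sign and the acute calls were lost when each array was scaled only by its median: this put the median change of all tested probes against naïve cells at up to 0.779 (CpG re-stimulated; 0.011 on the deposited values), and Mavs was at 0.07 for CpG re-stimulated and 0.11 for Poly(I:C) re-stimulated cells against naïve cells, and at -0.77 (adjusted p = 0.557) for acute LPS and -0.50 (adjusted p = 0.81) for acute CpG. With 75th percentile scaling all 3 calls were kept, at -0.99, -0.97 and -0.72. The acute CpG call was also lost with replicate as a block (-1.14, adjusted p = 0.0566) and without naïve replicate 1 or 2 or any 1 CpG acute culture (adjusted p up to 0.116), and the CpG re-stimulated call with the block (adjusted p = 0.0566) and without naïve replicate 1 or 2 or CpG re-stimulated replicate 1 or 2 (up to 0.0933).

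E330016A19Rik, encoding the DNA sensor cGAS (probe at chr9:78278381-78278440, minus strand), rose with acute LPS and Poly(I:C) and was lower again after re-stimulation with either. Naïve values were 10.12, 10.38 and 10.21, acute Poly(I:C) values 13.10, 13.19 and 12.66, and acute LPS values 12.36, 12.64 and 12.21. After re-stimulation Poly(I:C) cells read 11.29, 11.38 and 11.74 and LPS cells 9.88 and 10.73. On this main probe the re-stimulated LPS arrays straddled the naïve range, whereas the re-stimulated Poly(I:C) arrays lay above it and below every acute Poly(I:C) array. On a second probe, also above background on all 25 arrays, re-stimulated LPS read 6.67 and 7.28, above the naïve arrays (6.06 to 6.52). CpG gave 10.85, 10.88 and 12.38, then 10.55, 10.39 and 10.58, and Pam3CSK4 gave 10.07 and 9.58, then 8.74, 9.07 and 9.61. On the main probe all 5 Pam3CSK4 arrays lay below all naïve arrays. On the second probe both Pam3CSK4 groups overlapped the naïve range, at 5.81 and 6.73 acutely and 5.38 to 6.22 after re-stimulation. The acute changes were 6.71-fold for Poly(I:C) (2.75 ± 0.20, adjusted p = 0.00347) and 4.49-fold for LPS (2.17 ± 0.20, adjusted p = 0.00135). On re-stimulation the gene fell 4.28-fold with LPS (-2.10 ± 0.31, adjusted p = 0.00439) and 2.86-fold with Poly(I:C) (-1.52 ± 0.22, adjusted p = 0.0275; 0.0555 with median scaling). It stayed 2.35-fold above naïve cells after Poly(I:C) re-stimulation (1.23 ± 0.20, adjusted p = 0.0214; 0.0509 with the replicate block). Each of these 2 re-stimulated Poly(I:C) calls was lost without replicate 1 or 2 of either group compared (adjusted p up to 0.109 against acute and 0.0809 against naïve cells). The Pam3CSK4 re-stimulated difference from naïve cells was -1.10 ± 0.26 (adjusted p = 0.0685), and was called with normexp background, in 1 fit of all groups (0.0273), with the slide as a random block (0.014) and without the slide of replicate 3 (-1.34, adjusted p = 0.0168).

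Tmem173, encoding STING, which lies downstream of cGAS, had a range of group means of only 1.5. Naïve values were 11.70, 12.07 and 11.01, acute Poly(I:C) values 12.59, 12.62 and 11.09, and re-stimulated Poly(I:C) values 12.32, 12.38 and 11.17. In these 3 groups replicate 3 was the lowest array. The other groups read 11.59, 11.17 and 11.24 (acute LPS), 11.10 and 10.97 (re-stimulated LPS), 11.20, 10.93 and 10.52 (acute CpG), 10.91, 10.56 and 10.38 (re-stimulated CpG), 10.77 and 10.43 (acute Pam3CSK4), and 10.97, 11.48 and 10.34 (re-stimulated Pam3CSK4). Both CpG, both Pam3CSK4 and both LPS groups had means below that of naïve cells. With median scaling the LPS differences from naïve cells were 0.08 (acute) and 0.12 (re-stimulated). No difference from naïve cells was called. Re-stimulated CpG came nearest, at -0.98 (adjusted p = 0.0944; -1.27 and adjusted p = 0.0133 without naïve replicate 3, and 0.0163 with the slide as a random block), and median scaling gave 0.10 for it. In all 7 groups with a replicate 3 on the shared slide, that array was lower for Tmem173 than the mean of the others, by 0.34 to 1.52 (median difference -0.88). On the same 7 arrays Ly6g was lower by a median of 6.71 and Mpo by 7.57, in 7 of 7 groups each; the part of these markers in the Tmem173 values was not tested. For the other 8 sensor genes replicate 3 was lower in 1 to 3 of the 7 groups.

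**Figure D2:**
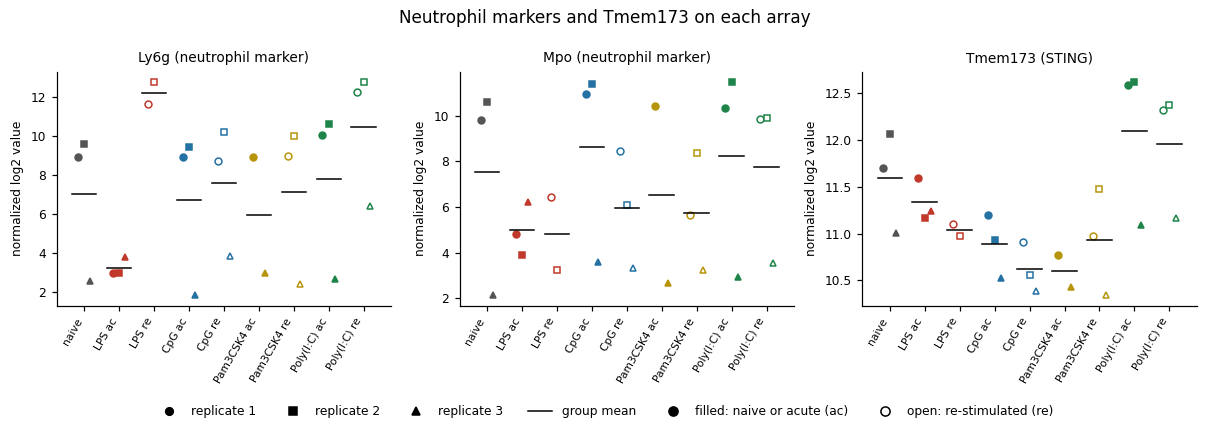
Normalized log2 values (y axis) of the neutrophil markers Ly6g and Mpo and of Tmem173 on every array, by group (x axis), with the replicate number as symbol and group means as bars. Replicate 3 (triangles) are low in all 3 panels in the 7 groups on shared slides, and the 3 acute LPS arrays lie at 2.96 to 3.78 for Ly6g.

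Zbp1, the sensor of Z-form nucleic acid, had a higher group mean after re-stimulation than after acute stimulation for every ligand. The log2 differences were 1.07 to 2.30 on its main probe and smaller on its other probe. Its probe lies at chr2:173039307-173039366 (minus strand). Naïve cells had 11.67, 12.02 and 11.02. Acute values were 13.95, 13.80 and 13.88 for LPS, 12.28, 12.88 and 13.72 for CpG, 11.90 and 10.88 for Pam3CSK4, and 14.66, 14.53 and 13.55 for Poly(I:C). Re-stimulated values were 15.16 and 14.74 for LPS, 13.98, 13.56 and 14.82 for CpG, 13.71, 13.55 and 13.83 for Pam3CSK4, and 15.32, 15.34 and 15.39 for Poly(I:C). Re-stimulated arrays lay above all acute arrays of the same ligand for 3 ligands (not CpG), and all 11 of them lay above all naïve arrays. Against naïve cells Zbp1 was 13.7-fold higher after Poly(I:C) re-stimulation (3.78 ± 0.28, adjusted p = 0.00428), 10.4-fold after LPS (3.38 ± 0.36, adjusted p = 0.0213), 5.86-fold after CpG (2.55 ± 0.41, adjusted p = 0.0178) and 4.36-fold after Pam3CSK4 (2.12 ± 0.29, adjusted p = 0.0254). Of the 9 genes, Zbp1 was the only one called in all 4 of these comparisons. With the replicate block the Pam3CSK4 value (2.12, adjusted p = 0.0648) and the CpG value (2.55, adjusted p = 0.0565) were no longer calls, and the lower probe of the gene missed the threshold for Pam3CSK4 (1.48, adjusted p = 0.116) and for CpG (2.15, adjusted p = 0.0792). Leaving out 1 array ended the LPS call without naïve replicate 1 or either re-stimulated LPS culture (adjusted p up to 0.209), the CpG call without naïve replicate 1 or CpG re-stimulated replicate 1 (up to 0.0673), and the Pam3CSK4 call without naïve replicate 1 or 2 or any 1 re-stimulated Pam3CSK4 culture (up to 0.117).

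The step from acute to re-stimulated was called for Zbp1 with LPS, where it rose 2.11-fold (1.07 ± 0.22, adjusted p = 0.0124); that call was lost without LPS re-stimulated replicate 1 (adjusted p = 0.0748), with the slide as a random block (0.0835), in 1 fit of all groups (0.0575) and on the other probe (0.67, adjusted p = 0.122). For the other ligands the differences were 1.16 ± 0.46 with CpG (adjusted p = 0.207), 2.30 ± 0.35 with Pam3CSK4 (adjusted p = 0.157) and 1.10 ± 0.31 with Poly(I:C) (adjusted p = 0.0935; 0.73 with adjusted p = 0.0324 without the slide of replicate 3, and 0.75 with 0.0492 without acute Poly(I:C) replicate 3). With the slide as a random block all 3 were called (adjusted p of 0.0427, 0.00307 and 0.0414). The Pam3CSK4 step was also called in 1 fit of all groups (0.00609) and with median scaling (2.75, adjusted p = 0.0371), and the Poly(I:C) step with median scaling (1.38, adjusted p = 0.0481). On the other probe the acute and re-stimulated means were 10.37 and 10.68 for CpG, 8.46 and 10.01 for Pam3CSK4 and 12.37 and 12.93 for Poly(I:C). Acute stimulation raised Zbp1 4.93-fold with LPS (2.30 ± 0.28, adjusted p = 0.00316) and 6.39-fold with Poly(I:C) (2.68 ± 0.40, adjusted p = 0.0221). The latter was no call without naïve replicate 1 or 2 or Poly(I:C) acute replicate 1 or 2 (adjusted p up to 0.109). The acute CpG difference was 1.39 ± 0.44 (adjusted p = 0.13; called in 1 fit of all groups, 0.0153, with the slide block, 0.0107, and with median scaling, 2.18 and 0.0281).

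Eif2ak2, encoding PKR (probe at chr17:79252168-79252227, minus strand), was, like cGAS, highest after acute LPS and acute Poly(I:C). Naïve values were 10.47, 10.64 and 10.32, acute LPS values 13.13, 13.07 and 13.63, and acute Poly(I:C) values 13.35, 13.28 and 12.98. After re-stimulation LPS gave 11.22 and 10.89 and Poly(I:C) 11.52, 11.20 and 11.93. Both re-stimulated groups lay wholly between the naïve and the acute arrays. CpG gave 10.87, 11.16 and 12.75, then 10.61, 10.67 and 10.86, and Pam3CSK4 gave 10.78 and 10.22, then 9.33, 9.83 and 10.28. The re-stimulated Pam3CSK4 arrays were all below the naïve ones. Eif2ak2 rose 6.97-fold with acute LPS (2.80 ± 0.23, adjusted p = 0.000991) and 6.62-fold with acute Poly(I:C) (2.73 ± 0.19, adjusted p = 0.00254). It fell on re-stimulation 4.66-fold with LPS (-2.22 ± 0.26, adjusted p = 0.00211) and 3.15-fold with Poly(I:C) (-1.65 ± 0.24, adjusted p = 0.0271). The last call was lost without replicate 1 or 2 of either group (adjusted p up to 0.108). The remaining difference of re-stimulated Poly(I:C) from naïve cells, 2.10-fold (1.07 ± 0.24, adjusted p = 0.0485), was called in none of the 6 fits that leave out 1 array (adjusted p up to 0.145) nor with the replicate block (0.0976) or median scaling (0.0569).

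Azi2, encoding the TBK1 adapter NAP1 (probe at chr9:117972790-117972849, plus strand), was above its naïve values on 22 of 22 stimulated arrays, though by small amounts for Pam3CSK4. The group means were 8.85 ± 0.05 (SD, n = 3) in naïve cells, 10.52 ± 0.16 (SD, n = 3) with acute LPS and 10.06 ± 0.19 (SD, n = 3) with acute Poly(I:C). Re-stimulated cells stood at 9.93 ± 0.15 (SD, n = 3) for Poly(I:C), 9.72 ± 0.02 (SD, n = 2) for LPS, 9.42 ± 0.18 (SD, n = 3) for CpG and 9.08 ± 0.03 (SD, n = 3) for Pam3CSK4. All these values are of the main probe. The second probe, above background on 13 arrays only, had means of 5.18 with acute and 5.12 with re-stimulated LPS. Its acute and re-stimulated Poly(I:C) means were 3.93 and 4.49, with arrays overlapping the naïve ones (2.57 to 4.46). Azi2 rose 3.17-fold with acute LPS (1.67 ± 0.18, adjusted p = 0.00216) and 2.32-fold with acute Poly(I:C) (1.21 ± 0.17, adjusted p = 0.0191). On the main probe it fell 1.73-fold from acute to re-stimulated LPS (-0.79 ± 0.20, adjusted p = 0.027) and was 2.11-fold above naïve cells after Poly(I:C) re-stimulation (1.08 ± 0.17, adjusted p = 0.0201). Both Poly(I:C) calls were lost without replicate 1 or 2 of either group compared (adjusted p up to 0.104), and the fall with LPS without acute replicate 1 or 2 or either re-stimulated culture (up to 0.12). With median scaling all 3 were lost, at 1.54 (adjusted p = 0.212) for acute and 1.74 (adjusted p = 0.0737) for re-stimulated Poly(I:C) and -0.47 (adjusted p = 0.462) for the LPS step, which 75th percentile scaling ended too (-0.68, adjusted p = 0.0656).

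**Figure D3:**
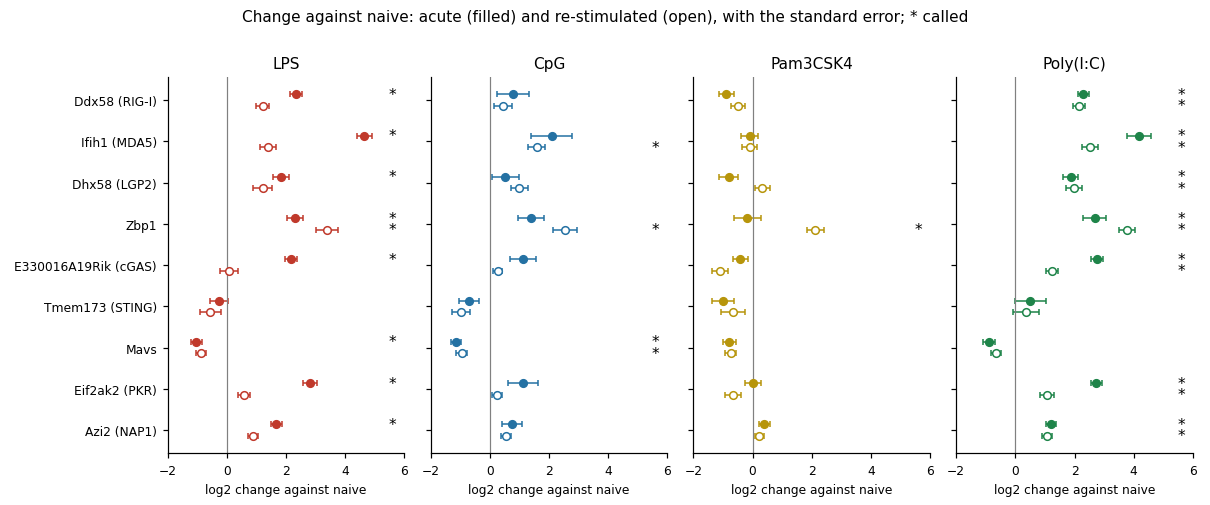
Log2 change of each of the 9 genes against naïve cells (x axis) for each ligand, with the limma standard error as bar; filled points are acute and open points re-stimulated cells, and an asterisk marks a call. Ifih1 reaches 4.65 with acute LPS and 4.19 with acute Poly(I:C), and Zbp1 is the only gene whose open point is called in all 4 panels.

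Against naïve cells, acute LPS raised all 3 RIG-I-like receptor genes, Zbp1, cGAS, PKR and NAP1 and lowered Mavs, so that 8 of the 9 genes were called (7 higher, 1 lower), against 26.5% of all tested probes (13.2% in each direction), and 8 of 9 did not overlap between groups (47.7% of probes). Mean levels of neutrophil markers in naïve and acute LPS cells were 7.02 and 3.24 for Ly6g, 9.76 and 6.44 for Camp, 7.52 and 4.97 for Mpo and 12.12 and 11.86 for Elane; their part in these changes was not tested. Acute Poly(I:C) raised the same 7 genes, 7 of 9 called, all higher, against 6.03% of probes (3.8% higher), with 8 non-overlapping (29.3%). The paper lists cGAS, Zbp1, Dhx58, Ifih1 and Azi2 as raised by both ligands on these arrays, so the counts are not independent of its result. The median change of the 9 genes was 2.17 for LPS and 2.30 for Poly(I:C), against -0.01 and -0.10 over all tested probes. Acute CpG had 1 call, Mavs, against 5.72% of probes (2.63% lower). Of the 9 genes, 6 did not overlap (31.3%) and 4 had an unadjusted p under 0.05 (23.2%), with a median of 0.79 (-0.07 over all probes), which was 0.38 without CpG acute replicate 3, 0.35 without the slide of replicate 3 and 1.64 with median scaling (0.43 over all probes). In 1 fit of all groups, and likewise with the slide as a random block, Ifih1, Zbp1, cGAS, PKR and NAP1 were called higher with acute CpG and Mavs lower with acute Pam3CSK4 and Poly(I:C). Acute Pam3CSK4 had 0 calls by limma, as did 0% of all probes, with 3 of the 9 genes at an unadjusted p under 0.05 (12.4%), 6 non-overlapping (32.2%) and a median of -0.41 (0.01), which was -0.65 and -0.17 without acute Pam3CSK4 replicate 1 and 3. The smallest adjusted p of any probe in that comparison was 0.288. Without the slide of replicate 3 the counts were 8 for LPS, 8 for Poly(I:C), where Mavs was added (-1.04, adjusted p = 0.0143), 2 for CpG and 0 for Pam3CSK4.

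From acute to re-stimulated cells, 5 genes fell with LPS (Ifih1, Eif2ak2, cGAS, Ddx58 and Azi2) and Zbp1 rose. These 6 calls stand against 34.2% of all probes called (17.2% higher, 17% lower), and 8 of 9 genes did not overlap (62.7% of probes). Of the 4 neutrophil markers, Ly6g had a mean of 3.24 on the acute and 12.22 on the re-stimulated LPS arrays and Camp of 6.44 and 11.05, while Elane (11.86 and 12.2) and Mpo (4.97 and 4.83) differed little; their part in these changes was not tested. With Poly(I:C) 2 genes were called, both lower (cGAS and Eif2ak2), against 4.93% of probes (2.62% lower), and 4 did not overlap (32.1%). Without the slide of replicate 3 4 were called, with Ifih1 lower and Zbp1 higher besides. Mean Ly6g was 7.79 in acute and 10.5 in re-stimulated Poly(I:C) cells, and Camp 10.93 and 11.4. Mpo was at 8.24 and 7.76 and Elane at 11.81 and 11.68. Of the macrophage markers, Mertk was at 10.93 and 9.39, Emr1 at 16 and 15.1 and Fcgr1 at 13.37 and 13.56. The part of these markers in the Poly(I:C) changes was not tested. With CpG and with Pam3CSK4 limma called 0 of 9, against 3.56% and 0% of probes; 1 and 2 genes had an unadjusted p under 0.05 (21.7% and 13.6% of probes), and 2 and 3 did not overlap (28.4% and 31.8%). Without the slide of replicate 3, which holds no array of the LPS step, the counts were 0 for CpG and 0 for Pam3CSK4. The medians of the 9 genes were -0.79 for LPS (-0.02 over all probes), -0.14 for Poly(I:C) (0.00), -0.27 for CpG (0.06) and 0.05 for Pam3CSK4 (0.02). Those of Poly(I:C) and CpG changed sign with median scaling, to 0.16 and 0.11, against 0.243 and 0.365 over all probes, where LPS gave -0.47 (0.157) and Pam3CSK4 0.48 (0.387). The CpG median was also 0.20 without CpG acute replicate 3 and 0.08 without the slide of replicate 3, and that of Pam3CSK4 was -0.05 without its re-stimulated replicate 3.

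Re-stimulated cells were also set against naïve cells, which for LPS keeps the comparison on shared slides. In naïve and in re-stimulated LPS, CpG, Pam3CSK4 and Poly(I:C) cells, mean Ly6g was 7.02, 12.22, 7.59, 7.12 and 10.5. In the same order Camp was 9.76, 11.05, 10.67, 10.66 and 11.4, and Mpo 7.52, 4.83, 5.96, 5.75 and 7.76. Elane was 12.12, 12.2, 11.41, 11.55 and 11.68. The part of these neutrophil markers in the differences from naïve cells was not tested. After Poly(I:C) re-stimulation 7 of 9 genes were above naïve cells, the same 7 as acutely, against 9.03% of probes called (4.79% higher), and 8 did not overlap (35.8%); with the replicate block 4 remained called (Ddx58, Ifih1, Zbp1 and Azi2). After CpG re-stimulation 3 were called (Zbp1 and Ifih1 higher, Mavs lower), against 13.2% of probes (6.69% higher, 6.48% lower), and 7 did not overlap (39.2%). Ifih1 stood 3.01-fold above naïve cells there (1.59 ± 0.28, adjusted p = 0.023) and lost its call without any 1 array but naïve replicate 3 (adjusted p up to 0.0745), and with the replicate block (0.0667). After LPS re-stimulation only Zbp1 was called, against 5.67% of probes (3.28% higher), although 7 genes did not overlap (48.1%) and 7 had an unadjusted p under 0.05 (26.3%). Adjusted p was between 0.051 and 0.1 there for Ddx58 (1.21), Ifih1 (1.39), Dhx58 (1.21), Mavs (-0.88) and Azi2 (0.87). Without naïve replicate 3, the array with the high detection rate, 7 were called: Zbp1, Ddx58 (1.11, adjusted p = 0.019), Ifih1 (1.20, 0.0104), Dhx58 (0.97, 0.0387) and Azi2 (0.85, 0.0235) higher, and Mavs (-0.89, 0.0221) and Tmem173 (-0.85, 0.0402) lower. Levels of cGAS in re-stimulated LPS cells differed from naïve cells by 0.07 on the main probe (adjusted p = 0.907). On a second probe the means were 6.36 in naïve and 6.97 in re-stimulated LPS cells, without overlap. After Pam3CSK4 re-stimulation Zbp1 was the single call, against 5.36% of probes (2.61% higher), with 5 of 9 not overlapping (32.6%) and 3 at an unadjusted p under 0.05 (25.3%). Without the slide of replicate 3 the counts were 8 for Poly(I:C), 4 for CpG and 4 for Pam3CSK4, where cGAS (-1.34), Mavs (-0.84) and Eif2ak2 (-0.98) were called lower besides Zbp1.

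Differences between ligands were tested in 1 fit of all 9 groups. The paper, from the same arrays, lists cGAS, Zbp1, Dhx58, Ifih1 and Azi2 as raised by Poly(I:C) and LPS and not by Pam3CSK4 or CpG. The counts of members called here are not independent of that list. Acute Poly(I:C) cells had higher levels than acute CpG cells of Ifih1 (4.29-fold, adjusted p = 0.0137), cGAS (3.06-fold, 0.00753), Eif2ak2 (3.06-fold, 0.0123), Ddx58 (2.85-fold, 0.0184) and Dhx58 (2.54-fold, 0.0127), 5 of 9 called against 5.07% of probes (3.09% higher), with 4 not overlapping (18.8%). In a fit of these groups alone and with median scaling 0 were called, and without the slide of replicate 3 8 were, Zbp1 (2.01, adjusted p = 8.76e-05), Tmem173 (1.54, 0.000498) and Azi2 (0.93, 0.00204) being added. Without CpG acute replicate 3 the calls were kept at larger values, for example 2.92 for Ifih1 (adjusted p = 3.21e-05) and 2.13 for Ddx58 (adjusted p = 3.87e-05), and Zbp1 (1.67, adjusted p = 0.0105) and Azi2 (0.84, adjusted p = 0.00192) were added. With the replicate block Tmem173 was called as well (1.21, adjusted p = 0.00812). Leaving out the first or second culture of either group ended the calls for Ddx58, Ifih1, Dhx58 and Eif2ak2 (adjusted p up to 0.126), and leaving out CpG acute replicate 1 or 2 that for cGAS (up to 0.0607). Against acute Pam3CSK4, acute Poly(I:C) cells had higher levels of every member but Mavs, 8 of 9 called against 8.05% of probes (4.93% higher), with 8 not overlapping (34.3%). The differences were 19.5-fold for Ifih1 (4.28, adjusted p = 7.04e-05) and 8.92-fold for cGAS (3.16, adjusted p = 4.65e-05) and, at the lower end, 2.83-fold for Tmem173 (1.5 ± 0.45, adjusted p = 0.0446) and 0.81 for Azi2 (adjusted p = 0.0478). The last 2 calls were lost without either Pam3CSK4 culture or Poly(I:C) acute replicate 1 or 2 (adjusted p up to 0.269), and with median scaling (0.116 and 0.374). Mavs differed by -0.10 there (adjusted p = 0.861; 0.17 with median scaling). The Azi2 call against acute Pam3CSK4 was also lost with the replicate block (0.81, adjusted p = 0.0515) and with 75th percentile scaling (0.83, adjusted p = 0.0553).

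Re-stimulated Poly(I:C) and re-stimulated LPS cells did not differ by a call for any of the 9 genes in limma (2.11% of probes were called), although 4 genes had an unadjusted p under 0.05 (13.3%) and 7 did not overlap (32%). Ddx58 was 0.94 higher with Poly(I:C) (adjusted p = 0.297) and cGAS 1.16 ± 0.37 higher (adjusted p = 0.125); without the slide of replicate 3 Ddx58, Ifih1, cGAS and Tmem173 were called, by 0.95 to 1.32. Whether the step from acute to re-stimulated differed between ligands was tested as a difference of differences. Set against LPS, CpG and Pam3CSK4, the Poly(I:C) step differed by a call for 0 of 9 genes each, with 1, 0 and 3 genes at an unadjusted p under 0.05 (20.2%, 11.1% and 12% of probes), where 4.09%, 0.0396% and 0.141% of probes were called. The fall of Ddx58 with LPS and its near-equal main-probe levels with Poly(I:C) were therefore not shown to differ in the fit of all arrays. Without the slide of replicate 3 the difference was 1.06 ± 0.25 (adjusted p = 0.0186).

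The rest of the pathway was described with 7 lists of 92 genes in all, of which 87 to 89 were tested in each comparison with naïve or acute cells of the same ligand. With acute LPS 37 of 89 were called higher and 12 lower (median change 0.48; 27 and 1 with median scaling), 55.1% against 26.5% of all tested probes. With acute Poly(I:C) 23 were higher and 2 lower (0.45; 24 and 0), 28.1% against 6.03%. With acute CpG 12 of 88 were higher and 3 lower (15 and 0 with median scaling), 17% against 5.72%, and with acute Pam3CSK4 0 were called by limma, as were 0% of probes. From acute to re-stimulated LPS 12 of 89 were higher and 29 lower (-0.28; 11 and 16 with median scaling), 46.1% against 34.2%. The share was near that of all probes for the Poly(I:C) step, where 3 were higher and 3 lower (-0.11; 6 and 0), 6.74% against 4.93%. For the CpG step 1 of 88 was higher and 4 lower (2 and 2 with median scaling), 5.68% against 3.56%, and for Pam3CSK4 0 of 87 were called. Re-stimulated cells differed from naïve cells in 10 higher and 1 lower for LPS (12 and 0 with median scaling), 12.5% against 5.67%, and in 13 and 3 for CpG (21 and 0), 18.2% against 13.2%. For Poly(I:C) they were 23 and 3 (24 and 0 with median scaling), 29.2% against 9.03%, and for Pam3CSK4 2 and 4 (2 and 0), 6.9% against 5.36%. Leaving out the slide of replicate 3, which for acute LPS removes naïve replicate 3 only, gave 38 and 12 for acute LPS (56.2%, against 37.8% of all probes in that fit), 39 and 9 for acute Poly(I:C) (53.9% against 25.8%), 20 and 7 for acute CpG (30.7% against 17.7%) and 9 and 3 for acute Pam3CSK4 (13.6% against 8.35%). It gave 3 and 7 for the CpG step (11.5% against 7.22%) and 11 and 15 for the Poly(I:C) step (29.2% against 25.7%). For re-stimulated against naïve cells it gave 25 and 6 with LPS (35.2% against 25%), 21 and 8 with CpG (33% against 25.8%), 11 and 13 with Pam3CSK4 (27.6% against 24.4%) and 36 and 13 with Poly(I:C) (55.1% against 29.5%). With the replicate block the higher and lower counts were 5 and 1 for acute CpG (2.1% of all probes), 19 and 0 for acute Poly(I:C) (4.45% of all probes), 2 and 4 for the CpG step (4.57% of all probes) and 4 and 4 for the Poly(I:C) step (6.44% of all probes). For re-stimulated against naïve cells they were 8 and 1 with CpG (8.93% of all probes), 0 and 0 with Pam3CSK4 (0.0215% of all probes) and 19 and 1 with Poly(I:C) (5.99% of all probes).

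Ifnb1, encoding interferon-β, rose from near background with acute LPS, CpG and Poly(I:C). It read 3.13, 2.95 and 2.93 in naïve cells, where 1 of 3 arrays was above background, 13.99, 13.86 and 12.14 with acute LPS, 12.22, 11.68 and 10.99 with acute Poly(I:C), 9.05, 8.30 and 12.25 with acute CpG, and 6.67 and 4.45 with acute Pam3CSK4. Re-stimulated cells had 8.30 and 9.47 with LPS, 10.37, 9.04 and 10.03 with CpG, 3.55, 3.38 and 4.71 with Pam3CSK4, and 13.41, 11.31 and 12.69 with Poly(I:C). Acute LPS, CpG and Poly(I:C) arrays were all far above the naïve ones, and re-stimulated LPS arrays lay between. Both acute Pam3CSK4 arrays were above the naïve ones too, with no call (2.56 ± 0.67, adjusted p = 0.292). Since the naïve probe was above background on 1 of 3 arrays, the rises are lower bounds on the log2 scale, at least 10.33 with acute LPS (adjusted p = 0.00028), at least 6.86 with acute CpG (adjusted p = 0.0233; 0.0562 with the replicate block) and at least 8.63 with acute Poly(I:C) (adjusted p = 0.00109). It fell on re-stimulation with LPS (-4.45 ± 0.64, adjusted p = 0.00409), and the Poly(I:C) step was 0.84 (adjusted p = 0.406). The difference between these 2 steps was called (5.29 ± 1.25, adjusted p = 0.0264; 0.0535 with median scaling), with acute LPS on slides of its own. Of the 11 tested genes of the interferon list, 6 rose and 1 fell with acute LPS, 2 rose with acute CpG and 2 with acute Poly(I:C). On LPS re-stimulation 2 rose and 5 fell. These counts and those of the following lists stand against 26.5% of all probes called with acute LPS (13.2% in each direction), 5.72% with acute CpG, 6.03% with acute Poly(I:C) (3.8% higher) and 34.2% on LPS re-stimulation (17.2% higher, 17% lower).

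Among the adapters, kinases and transcription factors downstream of the sensors (15 tested), 6 rose and 2 fell with acute LPS, 2 rose and 1 fell with acute Poly(I:C), and 4 rose and 3 fell on LPS re-stimulation. Tank, an adapter of TBK1 like NAP1, had the largest acute rise of this list with LPS (6.39-fold, adjusted p = 0.00151) and with Poly(I:C) (4.23-fold, adjusted p = 0.0194; 0.0658 with the replicate block). Irf7, the interferon-amplifying transcription factor, was like Zbp1 in being higher after re-stimulation. It read 11.74, 12.55 and 10.37 in naïve cells, 13.17, 12.98 and 13.77 with acute and 15.47 and 15.59 with re-stimulated LPS, and 13.67, 14 and 13.22 with acute and 16.08, 16.06 and 14.89 with re-stimulated Poly(I:C). Re-stimulated arrays lay above the acute ones for both ligands, and the rise was called for both (2.22 for LPS, adjusted p = 0.00282; 2.05 for Poly(I:C), adjusted p = 0.0424). Tbk1, the kinase where the routes meet, rose with acute LPS only among the tests made (0.68 ± 0.17, adjusted p = 0.0332; 0.385 with median scaling, 0.076 with the replicate block). Irf3 (acute LPS -0.37, adjusted p = 0.152) and Ikbke (acute LPS 1.35 ± 0.76, adjusted p = 0.227) were not called in any.

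Of 22 tested regulators of the receptors and adapters, 10 rose and 4 fell with acute LPS, 7 rose with acute Poly(I:C), and 3 rose and 10 fell on LPS re-stimulation. Trim25, the ubiquitin ligase that activates RIG-I, read 14.68, 15.28 and 13.48 in naïve cells, 14.28, 14.31 and 14.42 with acute LPS and 17.58 and 17.35 with re-stimulated LPS. The re-stimulated arrays stood above both other groups, and the gene rose 8.73-fold from acute to re-stimulated LPS (3.13 ± 0.20, adjusted p = 0.000418) after an acute difference of -0.14 (adjusted p = 0.84). Herc6, a ligase that attaches the ubiquitin-like protein ISG15, had the largest rise of this list with acute LPS (5.32, adjusted p = 0.000159) and with acute Poly(I:C) (4.42, adjusted p = 0.00109), and the largest fall on LPS re-stimulation (-3.26, adjusted p = 0.000452). Nlrx1, a mitochondrial inhibitor of MAVS signalling, fell with acute LPS (-1.52, adjusted p = 0.00322; -1.25 and 0.223 with median scaling) and acute CpG (-1.44, adjusted p = 0.019; -0.91 and 0.71 with median scaling) and rose on re-stimulation with LPS (1.24, adjusted p = 0.00822), with CpG (1.45, adjusted p = 0.0177) and with Poly(I:C) (1.30, adjusted p = 0.0411).

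**Figure D4:**
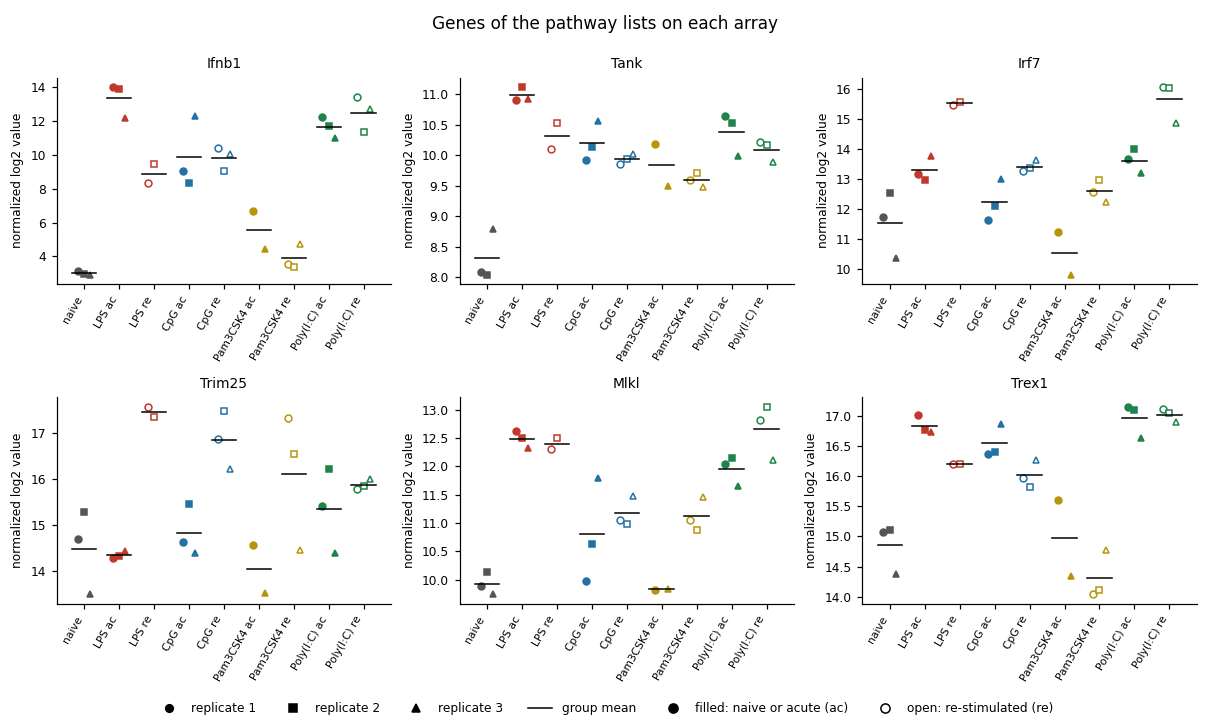
Normalized log2 values (y axis) of 6 genes of the pathway lists on every array, by group (x axis), with the replicate number as symbol and group means as bars. Ifnb1 runs from about 3 in naïve cells to 13.99 with acute LPS, Irf7 is higher after re-stimulation with LPS and Poly(I:C) than after their acute stimulation, and Trim25 has its highest group mean in re-stimulated LPS cells.

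Other nucleic acid sensors (20 tested) numbered 8 higher and 1 lower with acute LPS, 7 higher with acute Poly(I:C) and 1 higher and 7 lower on LPS re-stimulation. Aim2, the inflammasome sensor of DNA, read 9.72, 9.74 and 9.08 with acute and 7.44 and 6.99 with re-stimulated LPS, and 10.25, 9.80 and 9.16 with acute and 8.19, 8.28 and 8.25 with re-stimulated Poly(I:C). Its changes of -2.30 with LPS (adjusted p = 0.00278) and -1.5 with Poly(I:C) (adjusted p = 0.0445) were both called (for Poly(I:C), 0.0532 with median scaling and 0.051 with the replicate block). Pyhin1, a member of the family of Aim2, had the largest acute rises of this list, 20.5-fold with LPS (adjusted p = 0.0082) and 19.4-fold with Poly(I:C) (adjusted p = 0.0427). Among 9 nucleases that remove cytosolic nucleic acid, 3 rose and 1 fell with acute LPS and 2 rose with acute Poly(I:C). Trex1, the exonuclease that limits DNA reaching cGAS, rose with acute LPS (1.98, adjusted p = 0.00378), CpG (1.69, adjusted p = 0.0303; 0.0792 with the replicate block) and with Poly(I:C) (2.11, adjusted p = 0.0162) and was still above naïve cells after re-stimulation with Poly(I:C) (2.17, adjusted p = 0.0104) and CpG (1.17, adjusted p = 0.039; 0.09 with the block).

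In the arm downstream of ZBP1 (5 tested), 3 rose and 1 fell with acute LPS, 1 rose with acute Poly(I:C), and 1 rose and 2 fell on LPS re-stimulation. Mlkl, the executor of necroptosis, read 9.89, 10.14 and 9.74 in naïve cells and 12.82, 13.05 and 12.11 after Poly(I:C) re-stimulation, and like Zbp1 it was above naïve cells after re-stimulation with all 4 ligands: Poly(I:C) (2.74, adjusted p = 0.00874), LPS (2.47, adjusted p = 0.0141), CpG (1.25, adjusted p = 0.0204; 0.0567 with the replicate block) and Pam3CSK4 (1.20, adjusted p = 0.0423; 0.106 with median scaling, 0.0869 with the replicate block). Ripk3, the kinase between them, was called in no comparison, with LPS re-stimulated against naïve cells at 1.10 ± 0.43 (adjusted p = 0.189). Of the 10 genes around PKR and eIF2α, 3 rose and 3 fell with acute LPS, 2 rose and 1 fell with acute Poly(I:C), and 2 rose and 3 fell on LPS re-stimulation. Ddit3, the stress transcription factor CHOP, rose on re-stimulation with LPS (2.58, adjusted p = 0.00106) and with Poly(I:C) (3.34, adjusted p = 0.0481), with re-stimulated Poly(I:C) arrays at 13.48, 13.44 and 11.09. Against naïve cells Ddit3 was lower with acute LPS (-1.42, adjusted p = 0.005) and higher with re-stimulated LPS (1.16, adjusted p = 0.0387). With median scaling neither was a call (adjusted p of 0.282 and 0.245). Eif2ak3, the endoplasmic reticulum kinase PERK, fell with acute LPS (-2.89, adjusted p = 0.00157) and with Poly(I:C) (-1.60, adjusted p = 0.0338; -1.16 and 0.556 with median scaling, 0.0695 with the replicate block).

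The genes most like each member were ranked by Pearson's r of log2 values over the 25 arrays, among the main probes of detected genes; these arrays share slides, groups and normalization, and the values are a description. Ifih1 was closest to Igtp (r = 0.981), Herc6 (0.98) and Zcchc2 (0.979), and Ddx58 to Usp18 (0.973), Trim30c (0.97) and Gm4951 (0.965). Eif2ak2 was closest to Samd9l (0.981), Zufsp (0.979) and Daxx (0.978), and E330016A19Rik to Zc3hav1 (0.978), Gm12250 (0.977) and Daxx (0.975). Dhx58 was closest to Lgals9 (0.947), Ddx60 (0.946) and Oas1f (0.944), Zbp1 to Tspo (0.94), H2-T10 (0.936) and H2-T9 (0.926), and Azi2 to A530032D15Rik (0.959) and Herc6 (0.948). The members with the smallest ranges had lower values, Tmem173 with Gpr108 (0.9), 4922501C03Rik (0.866) and Usf1 (0.861), and Mavs with Cenpo (0.891), Tcfap4 (0.882) and 1700021K19Rik (0.88). Among the members themselves, Ifih1 and Eif2ak2 (r = 0.95), cGAS and Eif2ak2 (0.95), Ifih1 and cGAS (0.94) and Ifih1 and Azi2 (0.94) had the highest correlations, Zbp1 reached 0.85 with Dhx58 but 0.38 with both cGAS and Eif2ak2, and Mavs was between -0.49 and 0.09 with every other member. Second probes of the same gene had r of 0.97 for Ddx58, 0.98 for Ifih1, 0.92 for Zbp1, 0.91 and 0.98 for cGAS and 0.48 for Azi2, whose second probe was above background on 13 arrays only.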

How the data were processed

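RNA of 27 BMDM cultures was hybridised to 1-colour Agilent arrays, and spots were read with Feature Extraction 10.7.3.1. The authors deposited the spot intensities of each array and a table of normalized log2 values (0.943 to 18.8) of 25 arrays, which their methods derive with the RMA background step followed by quantile normalization. The deposited log2 values are the main values. Remaking them from the deposited intensities gave a median absolute difference of 0.0355 and served the other scalings and the 2 arrays without deposited values.

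Groups and replicate numbers came from the sample labels. Tests used limma 3.58.1 in R 4.3.3 (files read with the data.table package, version 1.17.8), with 1 linear model for each pair of groups, a filter that kept probes detected above background on 2 or more arrays in 1 of the groups, Benjamini-Hochberg adjustment over all tested probes, and a call at an adjusted p under 0.05 and at least 1.5-fold. Every adjusted p is from limma. Differences between ligands were contrasts in 1 fit of all 9 groups. The procedure was tested on simulated data. The members, gene lists and tests were chosen with earlier results of these data known. These include the paper's list of genes raised by Poly(I:C) and LPS and not by Pam3CSK4 or CpG, which names E330016A19Rik, Zbp1, Dhx58, Ifih1 and Azi2. Pathway lists were written from general knowledge of the routes. Named from them are the called genes with the largest rise and fall of a list, and always Ifnb1, Irf3, Irf7, Tbk1, Ikbke, Trim25 and Ripk3; results of some genes of the lists and of 1 promoter motif are not reported here. Probe positions are mm9, as in the array files, and promoter positions GRCm38.p6, as in the RefSeq table. The number of arrays limits the precision.

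Same-numbered cultures deviated together (correlation of deviations over 0.1 in each of 3 pairs) for acute CpG (0.26 to 0.32) and Poly(I:C) (0.35 to 0.41) against naïve cells, for both ligands on re-stimulation (0.26 to 0.40 and 0.27 to 0.44), for re-stimulated Pam3CSK4 and Poly(I:C) against naïve cells (0.17 to 0.24 each) and for acute Poly(I:C) against CpG (0.34 to 0.50). There the replicate number was taken to pair the cultures. Outside acute LPS each number was also 1 slide, so culture and slide cannot be told apart, in the replicate block too. Acute Pam3CSK4 gave 2 pairs per comparison and fell outside this rule, at 0.49 to 0.52 against naïve, 0.22 against re-stimulated and 0.46 to 0.60 against acute Poly(I:C) cells. So did re-stimulated CpG against naïve cells (0.10 to 0.26). Blocked values are given where they change a call there, and for some comparisons outside the rule. Alternatives were 75th percentile and median scaling, normexp background, no detection filter, all 27 arrays, 1 fit of all groups, the slide as a random block, the replicate block and each array left out.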

Additional observations from a re-analysis of the deposited data

Results flagged for a closer look

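The acute response of the sensor genes differed between ligands by a test of the difference: 5 of the 9 genes between Poly(I:C) and CpG, against 5.07% of all probes, and 8 of 9 between Poly(I:C) and Pam3CSK4, against 8.05%. From these same arrays the paper had listed E330016A19Rik, Zbp1, Dhx58, Ifih1 and Azi2 among genes raised by Poly(I:C) and LPS and not by Pam3CSK4 or CpG. The counts are not independent of that list. The 5 became 0 with median scaling, with all 27 arrays and in a fit of these groups alone, and the 8 became 5 in such a fit. The step from acute to re-stimulated differed between Poly(I:C) and LPS for Ifnb1 (5.29, adjusted p = 0.0264), for Ppp1r15b, a phosphatase subunit that reverses eIF2α phosphorylation (1.13, adjusted p = 0.0258), for the helicase Ddx3x (-0.94, adjusted p = 0.0403), for the TBK1 adapter Tbkbp1 (-1.58, adjusted p = 0.0476) and for Ifna1 (1.30, adjusted p = 0.00849). These are 5 of 89 pathway genes (5.62%), against 4.09% of all probes, and with median scaling 0 of the 5 were called (adjusted p of 0.0535 to 0.702). Of these, Ppp1r15b, Ddx3x, Tbkbp1 and Ifna1 were singled out after their values were seen, and acute LPS was on slides of its own, so slide and stimulus cannot be told apart. Between Poly(I:C) and Pam3CSK4 the step differed for Ddit3 (4.22, adjusted p = 0.0174; 0.0987 with median scaling).

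The 2 arrays without deposited values were outside all comparisons. LPS re-stimulated replicate 3 had 92.3% and Pam3CSK4 acute replicate 2 had 99.9% of probes well above background, the latter with 22.6% of spots flagged as non-uniform. On the remade values 4 of the 9 sensor genes of LPS re-stimulated replicate 3 and 1 of 9 of Pam3CSK4 acute replicate 2 lay above all naïve arrays, as did 27.8% and 28.9% of all probes detected on at least 2 of the 25 arrays. Of the 9, 1 and 0, respectively, lay within the range of the other arrays of their group, as did 10.1% and 6.89% of probes.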

How the results depend on the processing

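Of 2979 recomputed values of single sensor genes, 2712 kept their side of the threshold, 114 of them uncalled values that changed sign (19 of these with median scaling); 155 lost a call, 111 gained one and 1 called value changed sign: Mavs in re-stimulated CpG against naïve cells, 0.07 with median scaling. The cause was not tested. The numbers of sensor genes called that moved by over 1.5 times, or to or from 0, were as follows. Acute CpG against naïve cells went from 1 to 2 (median scaling), 0 (no detection filter), 6 (1 fit of all groups) and 6 (slide as a random block); acute Pam3CSK4 from 0 to 1 in each of the last 2. LPS acute to re-stimulated gave 2 instead of 6 with all 27 arrays, of which the 2 added ones had 92.3% and 99.9% of probes well above background; median scaling and the slide block each gave 4, within that limit. CpG acute to re-stimulated gave 1 with the slide block, Pam3CSK4 1 (median scaling), 1 (1 fit) and 2 (slide block), and Poly(I:C) 0 (no filter) and 4 (slide block). Against naïve cells, re-stimulated LPS gave 6 (normexp), 4 (75th percentile), 5 (1 fit) and 6 (slide block) instead of 1, CpG 5 (75th percentile) and 5 (slide block) instead of 3, Pam3CSK4 3 (normexp), 0 (no filter), 3 (1 fit) and 3 (slide block) instead of 1, and Poly(I:C) 4 (no filter) instead of 7. Acute Poly(I:C) against CpG gave 0 with median scaling, with all 27 arrays and in a fit of these groups alone, and against Pam3CSK4 5 in such a fit.

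With replicate as a block the counts were 0 for acute CpG, 0 for re-stimulated CpG, 0 for re-stimulated Pam3CSK4, 3 for re-stimulated LPS and 4 for re-stimulated Poly(I:C), each against naïve cells, and 1 for re-stimulated Poly(I:C) against LPS; no other count moved by over 1.5 times. The numbers were not taken to pair the cultures in the LPS comparisons. Correlations with naïve cells were 0.01 to 0.04 for acute LPS, on slides of its own, and 0.08 for re-stimulated LPS, on shared slides.

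An alternative chosen after seeing the data left out the slide shared by the third cultures, which removes no array of the LPS step. It gave 2 for acute CpG, 7 for re-stimulated LPS and 4 for re-stimulated Pam3CSK4 against naïve cells, 4 for Poly(I:C) acute to re-stimulated, 8 for acute Poly(I:C) against CpG, 4 for re-stimulated Poly(I:C) against LPS, and 2, 3 and 1 for the Poly(I:C) step against those of LPS, CpG and Pam3CSK4.

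Leaving out 1 array at a time gave 8 to 8 genes for acute LPS, 3 to 8 for acute Poly(I:C), 0 to 1 for acute CpG and 0 to 0 for acute Pam3CSK4 against naïve cells. In the same order the ranges were 4 to 6, 0 to 4, 0 to 0 and 0 to 0 from acute to re-stimulated, and 0 to 7, 3 to 6, 0 to 4 and 0 to 1 for re-stimulated against naïve cells. Between ligands they were 0 to 7 for acute Poly(I:C) against CpG, 6 to 8 against Pam3CSK4, 0 to 0 for re-stimulated Poly(I:C) against LPS and 0 to 0 for the 3 differences of steps. Lone arrays left in a group are assumed to vary like the other group.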
